A study of Mus musculus with 6 samples.

Results

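Integrins and podosome proteins form a set of 40 genes whose products attach macrophages and osteoclasts to their substrate, and they were compared between H10 and C8 cells. The set was chosen by symbol, with earlier results of these data known. It held 18 integrin chains, 8 kinases, ubiquitin ligases and adhesion adaptors, and 5 GTPases and exchange factors. The rest were 4 proteins of the WASP, WAVE and Arp2/3 machinery and 5 actin and podosome structure proteins. The 40 symbols were looked up among the 19930 genes that the array's annotation names singly, and all 40 were found. Where a gene had several features, the one with the largest log2 average over the 6 arrays stood for it.

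H10 and C8 are Lifeact-mEGFP lines made from RAW264.7, a mouse macrophage line. H10 is labelled osteoclastogenic and C8 non-osteoclastogenic, and the comparison addresses how a line that fuses into osteoclasts differs from a line that does not. Both lines carry the same retroviral actin reporter and puromycin resistance, both were grown for 2 days with sRANKL at 60 ng/mL, and 3 arrays were made of each, so that no array holds unstimulated cells. Each line is 1 clone picked by limiting dilution, and a difference between the lines cannot be told apart from a difference between any 2 clones. The study states triplicates without saying whether these came from 3 separate cultures, so the p-values measure the spread between arrays, which may be technical. Fewer cells of a type and less RNA per cell cannot be told apart in such bulk samples.

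Integrins are receptors made of an α and a β chain that join the extracellular matrix to the actin cytoskeleton. In osteoclasts the vitronectin receptor, integrin αvβ3, gathers with Src and the focal adhesion kinase relative Pyk2 at podosomes, which are short actin columns surrounded by a ring of vinculin, talin and paxillin. Small GTPases, WASP and the Arp2/3 complex build the actin core, and packed podosomes form the sealing zone under which bone is resorbed.

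Expression was measured on Affymetrix Mouse Gene 1.0 ST arrays. The authors normalized the intensities by RMA (robust multi-array average) to log2 values, and a log2 difference of 1 is a doubling. The array medians were 7.65 to 7.74. Array quality weights, by which limma grades how closely an array follows its group, were lowest for C8 replicate 1 (0.357) and ranged from 0.757 to 1.86 on the other 5 arrays. Of the 6 macrophage markers, 5 were brighter than the table median of 7.70 on all 6 arrays. At an adjusted p under 0.05, 1 was higher in H10 cells, Adgre1 (2.02 on the log2 scale, adjusted p = 0.00114, limma). Of the 6 osteoclast markers, 5 were brighter than that median on all arrays, and 5 were higher in H10 cells at that threshold. Markers of megakaryocytes, T cells, B cells, fibroblasts, epithelial cells and endothelial cells numbered 20 measured genes, of which 5 were brighter than the table median on all arrays and 0 passed the test between the lines. At an unadjusted p under 0.05 one of these was higher in H10 cells, the platelet factor Pf4, with log2 values of 6.76 to 6.80 in H10 cells and 6.33 to 6.53 in C8 cells, all below the table median, and 2 were lower, Cd3g of T cells and Cd79a of B cells. The part of such cells in the results below was not tested.

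Of the 40 genes, 5 were higher in H10 cells by limma at an adjusted p under 0.05, which is 12.5%, and 1.85% of all genes measured were. These were Itgb7, the β chain of the lymphocyte integrins α4β7 and αEβ7, the tyrosine kinase Src, the talin-binding adaptor vinculin (Vcl), the actin cross-linker α-actinin 1 (Actn1) and the actin-severing protein gelsolin (Gsn). None was lower at that threshold by limma, where 1.04% of all genes were, and 35 passed in neither direction. At an unadjusted p under 0.05, 11 genes were higher (27.5%, against 6.10% of all genes) and 2 were lower, Itga3 and Cbl (5.0%, against 7.67% of all genes). The 3 H10 arrays lay above all 3 C8 arrays in 8 genes (20%, against 7.74% of all genes) and below them in 3 genes (7.5%, against 12.7%), and in 29 genes the arrays of the lines overlapped.

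The median log2 fold change of the 40 genes was 0.06, with the middle part between -0.03 and 0.30 (quartiles) and the whole range between -0.43 and 1.06. Over all 19930 genes the median was -0.03 and the quartiles were -0.09 and 0.04. The set is thus described by a few genes higher in H10 cells among many small differences, with 25 positive and 15 negative in all. No p is given for the set as a whole, since it was chosen with earlier results of these data known. For the same reason its shares beside those of all genes are a description only. On all 6 arrays 29 of the 40 genes were brighter than the table median, against 10544 of all 19930, so the background holds more dim genes. With features kept only where at least 3 arrays exceeded that median, 6 of 30 genes of the set were higher by limma, against 516 of 11256.

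**Figure D1:**
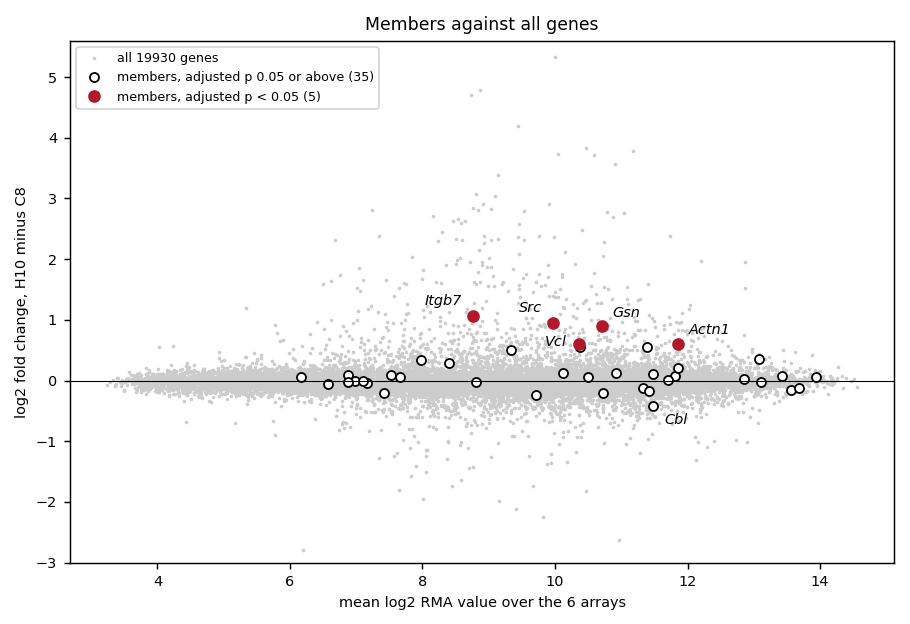
Log2 fold change of H10 against C8 cells (vertical axis) against the mean log2 RMA value over the 6 arrays (horizontal axis) for all 19930 genes (grey) and the 40 integrin and podosome genes (circles, filled where the adjusted p by limma was under 0.05). The 5 filled genes lie between 0.61 and 1.06, and the lowest of the 40 is Cbl at -0.43.

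Promoter sequences are shown for the 5 genes that were higher in H10 cells at the adjusted threshold. They are the 250 bases before an annotated transcript start in RefSeq (GRCm38.p6), written 5′ to 3′ on the strand of the gene. Windows were found for 29 of the 40 genes. They were searched on both strands for the binding letters of factors known from actin and osteoclast genes. These were the CArG box of serum response factor, TGANTCA (AP-1), GAGGAA (the PU.1 core) and CACGTG, a form of the E-box that MITF binds. Other letters that these factors may bind were not searched. Matches stand in capitals.

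Vcl (chr14:20929148-20929397, + strand): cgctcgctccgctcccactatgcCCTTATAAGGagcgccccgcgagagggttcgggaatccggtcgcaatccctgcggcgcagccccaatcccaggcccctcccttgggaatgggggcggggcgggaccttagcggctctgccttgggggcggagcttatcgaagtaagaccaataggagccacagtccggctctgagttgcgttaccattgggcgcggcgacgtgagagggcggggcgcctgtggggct
Src (chr2:157424043-157424292, + strand): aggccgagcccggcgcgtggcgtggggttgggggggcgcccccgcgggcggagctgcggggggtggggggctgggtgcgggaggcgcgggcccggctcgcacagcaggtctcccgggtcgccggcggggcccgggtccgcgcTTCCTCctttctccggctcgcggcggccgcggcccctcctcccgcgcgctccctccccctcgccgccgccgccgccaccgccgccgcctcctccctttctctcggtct
Gsn (chr2:35256109-35256358, + strand): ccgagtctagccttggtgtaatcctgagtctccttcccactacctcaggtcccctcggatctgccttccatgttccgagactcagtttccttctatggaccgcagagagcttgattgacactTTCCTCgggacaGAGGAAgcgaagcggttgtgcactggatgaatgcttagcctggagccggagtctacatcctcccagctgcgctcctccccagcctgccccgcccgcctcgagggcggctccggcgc
Actn1 (chr12:80260364-80260613, - strand): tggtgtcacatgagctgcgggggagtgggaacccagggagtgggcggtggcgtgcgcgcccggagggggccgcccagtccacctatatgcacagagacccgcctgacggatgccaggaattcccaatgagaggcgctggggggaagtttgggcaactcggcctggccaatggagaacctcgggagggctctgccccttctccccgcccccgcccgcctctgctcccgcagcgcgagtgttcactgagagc
Itgb7 (chr15:102231936-102232185, - strand): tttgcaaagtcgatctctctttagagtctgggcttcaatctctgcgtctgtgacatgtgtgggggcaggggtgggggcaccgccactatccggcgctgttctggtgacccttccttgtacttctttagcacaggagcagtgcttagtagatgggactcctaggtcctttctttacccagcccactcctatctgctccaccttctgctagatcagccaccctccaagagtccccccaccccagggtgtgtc

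The Vcl window held a CArG box that begins 227 bases before the start, and no other window of the 40 genes did. That box was in 1.47% of the 32851 windows of all genes. The capitals in the Src window are the PU.1 core on the opposite strand, 108 bases before the start. The Gsn window above held the core on the opposite strand and on its own strand, 128 and 116 bases before the start, and the other 2 Gsn starts held none of the 4 motifs. Neither the Actn1 nor the Itgb7 window held any of the 4. The PU.1 core was found in 26.3% of the 38 windows of the set and in 23.3% of all windows. AP-1 was found in the Itgax and Vav3 windows only, where 6.75% of all windows hold it. CACGTG was in none, against 6.02% of all windows, and other forms of the E-box were not searched. No match overlapped another in the windows printed. A match describes letters in a window, and the array does not tell which start was used.

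The integrin chain with the largest difference was Itgb7 (feature 10432957). Its log2 values were 9.16, 9.26 and 9.45 on H10 arrays 1, 2 and 3 and 8.30, 8.20 and 8.18 on C8 arrays 1, 2 and 3. All H10 arrays were higher than all C8 arrays, and the distance between the lines was several times the spread within either. The log2 fold change was 1.06 ± 0.09 (SE, 3 arrays against 3), or 2.09-fold with a 95% interval of 1.80 to 2.43 (adjusted p = 0.00354, limma). Itgb7 was past the threshold in each of the 15 alternative fits, in which its adjusted p was at most 0.031. Its partner chains are Itga4 and Itgae. Itga4 averaged 13.48 in H10 cells and 13.64 in C8 cells, a difference of -0.15 (95% interval -0.35 to 0.04). Itgae, the chain of the intraepithelial lymphocyte integrin, lay below the table median on all 6 arrays and differed by -0.01 (-0.20 to 0.19).

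The other β chains did not pass the test. Itgb3, the β chain of the vitronectin receptor, read 7.59, 7.77 and 7.70 across H10 and 7.66, 7.55 and 7.66 across C8. The values of the lines overlapped, close to the table median, and only H10 replicate 2 exceeded it. The log2 fold change was 0.06 (95% interval -0.11 to 0.24), the upper bound of which is 1.18-fold. A value near the table median is not a test of whether a gene is expressed, since background was not measured. Itgb1, shared by the fibronectin and collagen receptors, differed by 0.06 (-0.11 to 0.23), and Itgb2, the β chain of the leukocyte integrins, by 0.11 (-0.21 to 0.43). Itgb5, which also pairs with αv, had means of 9.60 ± 0.25 in H10 and of 9.84 ± 0.32 in C8 cells (SD, n = 3) and differed by -0.25 (-0.70 to 0.20). Itgb8, a further αv partner, was dim on all arrays and differed by -0.06 (-0.29 to 0.17).

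Among the 12 α chains 0 passed the adjusted threshold by limma, while 4 were higher and 1 lower at an unadjusted p under 0.05. Of all genes, 1.85% were higher and 1.04% lower at the adjusted threshold, and 6.10% and 7.67% at the unadjusted one. Itgav, the α chain of the vitronectin receptor, read 13.27, 13.22 and 13.28 for H10, against 12.96, 12.96 and 12.79 for C8. The lines did not overlap, and the H10 values lay close together. The difference was 0.35 ± 0.07 (SE) on the log2 scale, 1.28-fold (95% interval 1.14 to 1.44), with an adjusted p of 0.0704 by limma. It passed in 4 of the 15 alternative fits, with an adjusted p of 0.0183 to 0.0427 there, and at most 0.269 elsewhere.

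Itgam, the CD11b chain of the macrophage complement receptor, read 9.53, 9.68 and 9.55 in H10 cells, against 9.36, 8.96 and 8.92 in C8 cells. C8 replicate 1 stood nearest to the H10 arrays, without overlap. The log2 fold change was 0.51 ± 0.13 (SE), with an adjusted p of 0.142 by limma. Without C8 replicate 1 it was 0.65 (adjusted p = 0.0215). Itgam passed in 4 of the 15 alternative fits (adjusted p = 0.0215 to 0.0469) and reached 0.379 in others.

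Itga5, the α chain of the fibronectin receptor, read 12.02, 11.39 and 11.59 in H10 cells, against 11.31, 11.14 and 10.88 in C8 cells. The groups were apart by less than the H10 arrays were among themselves. The difference was 0.56 ± 0.18 (SE), with an adjusted p of 0.273 by limma. Itgal, the CD11a chain of the leukocyte integrin LFA-1, read 8.38, 8.12 and 7.95 in H10 cells, against 7.63, 7.83 and 7.99 in C8 cells. H10 replicate 3 lay below C8 replicate 3, so the lines overlapped, and the difference of 0.33 had an adjusted p of 0.416. Itga3, an α chain of laminin receptors, read 7.38, 7.17 and 7.38 in H10 cells, against 7.48, 7.52 and 7.56 in C8 cells. It was slightly lower on every H10 array, at values below the table median throughout, and the difference of -0.21 had an adjusted p of 0.352.

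The remaining α chains were Itga1, Itga2, Itga6, Itga9 and Itgax, which with Itgae lay below the table median on all 6 arrays. Itga1 and Itga2 belong to collagen receptors, Itga6 to laminin receptors, Itga9 to a receptor of tenascin and osteopontin, and Itgax is the CD11c chain of dendritic cells and macrophages. Their log2 fold changes were 0.06, 0.09, 0.10, -0.03 and -0.03, and every 95% interval of the 5 included 0.

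**Figure D2:**
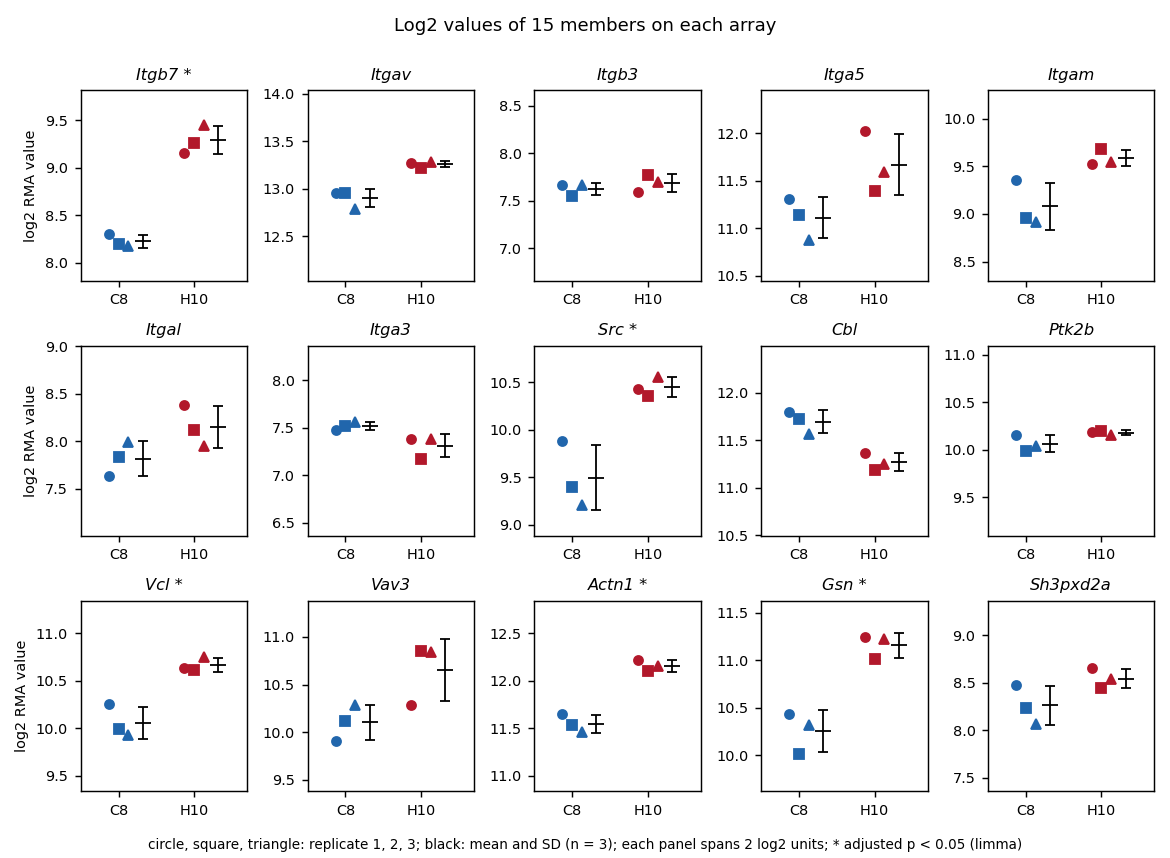
Log2 RMA value (vertical axis) of 15 of the 40 genes, array by array, in C8 (blue) and H10 cells (red), with the mean and SD of 3 arrays in black. Each panel spans 2 log2 units. H10 and C8 arrays are separate in Itgb7, Src, Vcl, Actn1 and Gsn (starred, adjusted p under 0.05 by limma) and lie together in Itgb3 and Ptk2b. They are also separate in the unstarred Itgav, Itga5 and Itgam (H10 above) and Itga3 and Cbl (H10 below).

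Of the signalling proteins, the kinase Src (feature 10477970), which osteoclasts need to form a ruffled border, was higher in H10 cells. It read 10.43, 10.36 and 10.56 for H10, against 9.88, 9.40 and 9.21 for C8. The lines did not overlap, and C8 replicate 1 was the C8 array nearest to them. Src differed by 0.95 ± 0.17 (SE) on the log2 scale, or 1.94-fold (95% interval 1.46 to 2.57), with an adjusted p of 0.049 by limma, at the edge of the threshold. It was 1.15 without C8 replicate 1 (adjusted p = 0.0109). The call was lost without H10 replicate 1, 2 or 3 (adjusted p = 0.134, 0.140 and 0.191) and without C8 replicate 2 or 3 (0.159 and 0.125), with differences of 0.81 to 1.00. Centring each array on its median ended the call as well (0.0722), with a difference of 0.95.

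Ptk2b, which encodes Pyk2, read 10.19, 10.20 and 10.15 in H10 cells, against 10.16, 9.99 and 10.04 in C8 cells. The lines overlapped through C8 replicate 1, and the difference was 0.12 (95% interval -0.04 to 0.28, adjusted p = 0.616). Pak4, a kinase acted on by Cdc42, differed by -0.02 (-0.16 to 0.12).

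Cbl, the ubiquitin ligase and adaptor that Src phosphorylates at podosomes, had the lowest log2 fold change of the 40 genes. It read 11.37, 11.19 and 11.25 in H10 cells, against 11.80, 11.72 and 11.57 in C8 cells. Every H10 array was below every C8 array. The difference was -0.43 ± 0.09 (SE), or 0.744-fold (95% interval 0.646 to 0.857), and its adjusted p of 0.0707 by limma did not pass. It passed in 4 of the 15 alternative fits (adjusted p = 0.0152 to 0.0397) and reached 0.257 in others.

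Cbl lies on chromosome 9 near a stretch from Kmt2a to Mto1, which was chosen with earlier results of these data known. The 191 genes there brighter than the table median had a median log2 fold change of -0.37, with 63 lower and 1 higher. Of all 19930 genes, at any brightness, 1.04% were lower by limma and 1.85% higher, and 12083 had a negative difference. In the order of genes in RefSeq, 25 of the 19930 genes lie between Cbl and Kmt2a. The 19 brighter ones had a median of -0.31, with 5 lower and 0 higher. Among the 20 brighter genes on the other side of Cbl the median was -0.24, and 18 of these were negative. The difference of Cbl, -0.43, had the same direction as these medians and was larger in size. The part of the neighbourhood in the difference of Cbl was not tested.

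The adaptor vinculin, Vcl (feature 10413059), was the only adaptor of the 4 that passed. It read 10.63, 10.61 and 10.75 in H10 cells, against 10.25, 9.99 and 9.93 in C8 cells. Every H10 value exceeded every C8 value, with C8 replicate 1 again the highest of its line. Its difference was 0.61 ± 0.10 (SE) on the log2 scale, or 1.52-fold (95% interval 1.29 to 1.80, adjusted p = 0.0363, limma). Without H10 replicate 1, 2 or 3 the adjusted p of Vcl was 0.0997, 0.120 and 0.162, without C8 replicate 2 or 3 it was 0.130 and 0.122, and without C8 replicate 1 it was 0.0175. Centring each array on its median also ended the call (0.0675), with a difference of 0.60.

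The partners of vinculin in the podosome ring did not pass. Talin, Tln1, which binds integrin tails and recruits vinculin, had means of 11.85 ± 0.05 in H10 and 11.78 ± 0.09 in C8 cells (SD, n = 3) and differed by 0.07 (95% interval -0.10 to 0.24). Paxillin, Pxn, differed by -0.12 (-0.33 to 0.10). Kindlin-3, Fermt3, which activates integrins in blood cells, was below C8 on every H10 array, with means of 11.33 and 11.51, and differed by -0.18 (-0.35 to 0.00, adjusted p = 0.423).

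**Figure D3:**
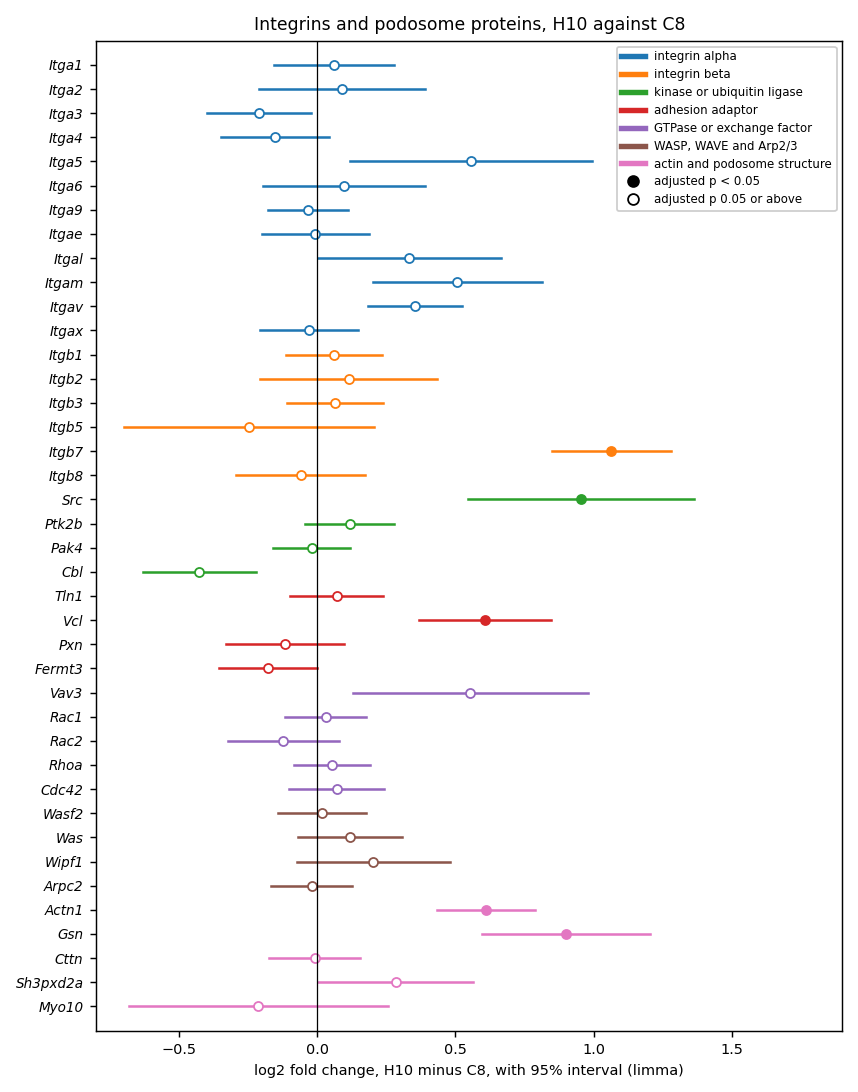
Log2 fold change of H10 against C8 cells (point) with its 95% interval by limma (line) for all 40 genes, coloured by role, filled where the adjusted p was under 0.05. The 5 filled points are Itgb7, Src, Vcl, Actn1 and Gsn, and the widest interval among the others is that of Myo10, from -0.68 to 0.26.

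None of the 5 GTPases and exchange factors passed the adjusted threshold by limma, where 1.85% of all genes were higher and 1.04% lower. At an unadjusted p under 0.05, where 6.10% of all genes were higher, 1 was. This was Vav3, the Rac exchange factor that osteoclasts use downstream of integrins. It read 10.28, 10.85 and 10.84 in H10 cells, against 9.91, 10.12 and 10.28 in C8 cells. H10 replicate 1 and C8 replicate 3 had the same value, and the 2 other H10 arrays were above every C8 array. The difference was 0.55 ± 0.18 (SE, 95% interval 0.13 to 0.98), with an adjusted p of 0.261.

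The GTPases themselves were brighter than the table median on all 6 arrays, and their values overlapped between the lines. Rac1, the general Rac form, differed by 0.03 (95% interval -0.12 to 0.18), and Rac2, the blood cell form, by -0.12 (-0.32 to 0.08). Cdc42, which activates WASP, differed by 0.07 (-0.10 to 0.24). Rhoa, which drives actomyosin contraction, differed by 0.05 (-0.08 to 0.19), the narrowest interval of the 35 genes that did not pass, and its other feature differed by 0.00 (-0.15 to 0.15).

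The WASP, WAVE and Arp2/3 proteins likewise differed little. Was, the WASP of blood cells that marks the podosome core, had means of 10.98 and 10.87 and differed by 0.12 (95% interval -0.07 to 0.30). Its stabilising partner Wipf1 differed by 0.20 (-0.07 to 0.48). Wasf2, the WAVE2 protein that acts for Rac, differed by 0.02 (-0.14 to 0.17), and Arpc2, a subunit of the Arp2/3 complex, by -0.02 (-0.17 to 0.13). At an unadjusted p under 0.05, 0 of the 4 were higher or lower, where 6.10% of all genes were higher and 7.67% lower.

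Of the 5 actin and podosome structure proteins, 2 were higher in H10 cells. Actn1 (feature 10401244), which cross-links actin filaments, read 12.22, 12.10 and 12.15 in H10 cells, against 11.65, 11.53 and 11.46 in C8 cells. The lines were well apart, with SDs of 0.06 in H10 and 0.10 in C8 cells. The log2 fold change was 0.61 ± 0.07 (SE), or 1.53-fold (95% interval 1.35 to 1.73, adjusted p = 0.0121, limma). The adjusted p of Actn1 was 0.0521 and 0.0732 when H10 replicate 2 or 3 was left out and 0.0623 and 0.0535 when C8 replicate 2 or 3 was, and it stayed under the threshold without either replicate 1 array.

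Gsn (feature 10471655), which severs and caps actin filaments and which osteoclasts need to assemble podosomes, read 11.24, 11.01 and 11.22 in H10 cells, against 10.44, 10.01 and 10.32 in C8 cells. Again the lines did not overlap, and replicate 2 was the lowest array in both lines. Gsn differed by 0.90 ± 0.13 (SE) on the log2 scale, or 1.87-fold (95% interval 1.51 to 2.30, adjusted p = 0.0212, limma). The adjusted p of Gsn was 0.0765, 0.0537 and 0.108 without H10 replicate 1, 2 or 3, 0.0824 without C8 replicate 3 and 0.084 without the replicate 1 arrays of both lines, with differences of 0.86 to 0.97.

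Sh3pxd2a, the podosome scaffold Tks5, has 2 features on the array. The brighter one read 8.65, 8.44 and 8.54 in H10 cells, against 8.48, 8.23 and 8.07 in C8 cells, and the dimmer one read 7.98, 7.59 and 7.77 against 7.31, 7.22 and 6.83. The lines overlapped on the brighter feature through C8 replicate 1 and were apart on the dimmer one. The differences were 0.28 (95% interval 0.00 to 0.56, adjusted p = 0.416) and 0.66 (0.29 to 1.03, adjusted p = 0.114), so neither passed by limma. Cortactin, Cttn, which stabilises branched actin, was dim on all 6 arrays and differed by -0.01 (-0.17 to 0.15). Myo10, a myosin of filopodia tips, had means of 10.62 ± 0.28 in H10 and 10.83 ± 0.31 in C8 cells (SD, n = 3) and differed by -0.21 (-0.68 to 0.26).

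A p that misses the threshold does not show that the lines were alike, and the intervals say how large a difference the 3 arrays per line leave possible. Of the 35 genes that did not pass, all 35 had a 95% interval within a log2 difference of 1 in either direction, which is a doubling. In 26 the interval stayed within 0.5, or 1.41-fold. The 9 others were Itga5, Itgal, Itgam, Itgav, Itgb5, Cbl, Vav3, Sh3pxd2a and Myo10. Of all 40 genes, 29 were brighter than the table median on all 6 arrays and 9 on none, and the 5 that passed were among the 29.

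C8 replicate 1 moved with these results. It was the highest of the 3 C8 arrays in 24 of the 40 genes (60.0%) and in all 5 that passed. The share was 41.6% over all genes and 53.4% over the 178 other adhesion genes read below. Of the 6 arrays, C8 replicate 1 had the lowest median (7.65) and the highest upper quartile (9.94). The part of brightness in these shares was not tested. Without C8 replicate 1, 6 of the 40 genes were higher in H10 cells, the same 5 and Itgam. Without the replicate 1 arrays of both lines, 5 were, namely Itgb7, Src, Vcl, Actn1 and Itgam (adjusted p = 0.0469), while Gsn no longer passed. The count fell to 2 without H10 replicate 1 (Itgb7 and Actn1) or C8 replicate 2 (Itgb7 and Gsn), and to 1, Itgb7, without H10 replicate 2, H10 replicate 3 or C8 replicate 3. Itgb7 was the only gene of the 40 that passed in every fit.

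**Figure D4:**
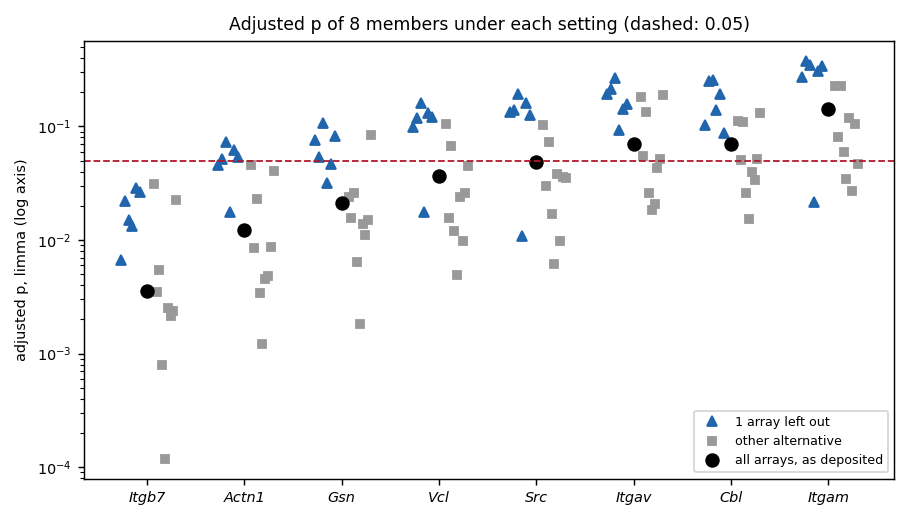
Adjusted p by limma (vertical axis, log scale) of 8 genes with all arrays (black), with 1 array left out (blue triangles) and under the other alternatives (grey squares). The dashed line is the threshold of 0.05, and only Itgb7 lies below it throughout, at 0.031 or less.

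The other genes of integrin adhesion were read from 7 lists by role that held 190 genes outside the set. These lists too were chosen with earlier results of these data known. Of the 190 genes, 178 were measured by a feature with 1 symbol. The other 12, among them Spp1, Ptk2 and Lyn, were not analysed here. Of the 178, 11 were higher (6.18%, against 1.85% of all genes) and 5 lower (2.81%, against 1.04%) in H10 cells by limma, and 162 passed in neither direction. The median log2 fold change was 0.01. At an unadjusted p under 0.05, 34 were higher (19.1%, against 6.10%) and 15 lower (8.43%, against 7.67%). The counts of each list below stand beside these same shares of all genes. The counts of higher genes were 7, 6 and 3 without H10 replicates 1, 2 and 3 and 11, 4 and 4 without C8 replicates 1, 2 and 3. Those of lower genes were 1, 0 and 0, and 3, 1 and 3. Among the 16 genes, Fyb, Syk and Myo1f passed whichever array was left out, and the highest adjusted p of the 13 others then ranged from 0.0585 (Svil) to 0.206 (Tns3).

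Among the ligands, 1 of 22 was higher and 0 lower by limma (2 and 2 at an unadjusted p under 0.05). Edil3, a secreted protein whose RGD motif binds integrin αvβ3, read 11.33, 10.77 and 11.40 in H10 cells, against 9.42, 8.42 and 8.54 in C8 cells. Its lowest H10 array was well above its highest C8 array. The log2 fold change was 2.37 ± 0.30 (SE), or 5.18-fold (95% interval 3.17 to 8.47, adjusted p = 0.0133). Without H10 replicate 1 or 3 or C8 replicate 2 or 3 its adjusted p was above the threshold, up to 0.07.

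None of the 9 genes listed as integrin chains outside the set passed in either direction, where 1.85% of all genes were higher and 1.04% lower. At an unadjusted p under 0.05, 0 did so, against 6.10% higher and 7.67% lower of all genes. So few genes do not set this list apart from all genes. The list includes Itgbl1, an integrin β-like protein that is not a chain of an integrin. The smallest p values were those of Itgad, which differed by -0.15 (adjusted p = 0.582), and Itga10, by -0.12 (adjusted p = 0.708).

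Of 38 genes of integrin activation and adhesion adaptors, 3 were higher and 1 lower. Fyb, the adaptor ADAP that couples receptor signals to integrin activation in T cells and platelets, had means of 8.84 ± 0.21 in H10 and 7.16 ± 0.28 in C8 cells (SD, n = 3), a log2 fold change of 1.68 (adjusted p = 0.00633, limma), with the C8 arrays below the table median. Lims2, the PINCH2 partner of integrin-linked kinase, was higher by 0.87 (adjusted p = 0.0146, limma). Tns3, a tensin that ties integrin tails to actin, was higher by 0.39 (adjusted p = 0.0449, limma). Dock1, a Rac exchange factor that acts with paxillin and Crk, was lower, at -0.56 (adjusted p = 0.0327).

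Of 20 kinases and phosphatases, 2 were higher and 1 lower. Syk, the kinase that integrin αvβ3 and the ITAM receptors share, had means of 10.62 ± 0.19 and 9.52 ± 0.13 (SD, n = 3) and a log2 fold change of 1.10 (adjusted p = 0.00843, limma). Ptpre, a phosphatase that activates Src in osteoclasts, was higher by 0.77 (adjusted p = 0.0197, limma). Csk, which phosphorylates the inhibitory tyrosine of Src, read 10.84, 10.87 and 10.82 in H10 cells, against 11.42, 11.35 and 11.28 in C8 cells. The lines were apart by more than their spread, and the difference was -0.51 ± 0.06 (SE, adjusted p = 0.013). Csk lies in the stretch of chromosome 9 described above, whose 191 brighter genes had a median of -0.37, and the part of that stretch in its difference was not tested.

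Of 21 small GTPases and exchange factors, 2 were higher and 0 lower by limma (6 and 1 at an unadjusted p under 0.05). Rhov, an atypical small GTPase, was higher by 0.99 (adjusted p = 0.0447, limma), with a C8 mean of 7.24, below the table median. Fgd6, a Cdc42 exchange factor of osteoclast podosomes, was higher by 0.71 (adjusted p = 0.0268, limma). This list had the highest median of the 7, 0.16. Of the 22 further genes of WASP, WAVE and Arp2/3, 0 passed by limma, with 5 higher and 1 lower at an unadjusted p under 0.05. The smallest p values were those of Nckap1, a subunit of the WAVE complex (0.75, adjusted p = 0.0948), and Arpin, an inhibitor of Arp2/3 (0.57, adjusted p = 0.101).

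Of 46 actin core, cross-linking and membrane tethering proteins, 3 were higher and 3 lower. Myo1f, a class I myosin of leukocytes, read 9.96, 9.86 and 9.91 in H10 cells, against 8.01, 8.09 and 8.03 in C8 cells. Its SD was 0.05 in H10 and 0.04 in C8 cells, and the difference was 1.87 ± 0.06 (SE), or 3.65-fold (adjusted p = 0.000138, limma). Dst, the cytoskeletal linker dystonin, was higher by 0.95 (adjusted p = 0.032, limma). Sh3pxd2b, the podosome scaffold Tks4 and paralogue of Sh3pxd2a, was higher by 0.44 (adjusted p = 0.0291, limma).

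The 3 lower genes of that list included Svil, supervillin, a podosome protein of the gelsolin family. It read 6.92, 6.92 and 7.0 in H10 cells, against 8.55, 8.00 and 8.04 in C8 cells. The H10 arrays lay below the table median and the C8 arrays above it, and the difference was -1.25 ± 0.15 (SE, adjusted p = 0.0115, limma). Supervillin and gelsolin, 2 proteins of one family, thus differed in opposite directions. Rdx, the membrane linker radixin, differed by -0.55 (adjusted p = 0.0328) and lies in the same stretch of chromosome 9 as Csk. Coro1a, the leukocyte coronin that limits branched actin, differed by -0.53 (adjusted p = 0.0444). Tln2, Tpm1, Itga11 and Myo1e also lie in that stretch and did not pass.

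**Figure D5:**
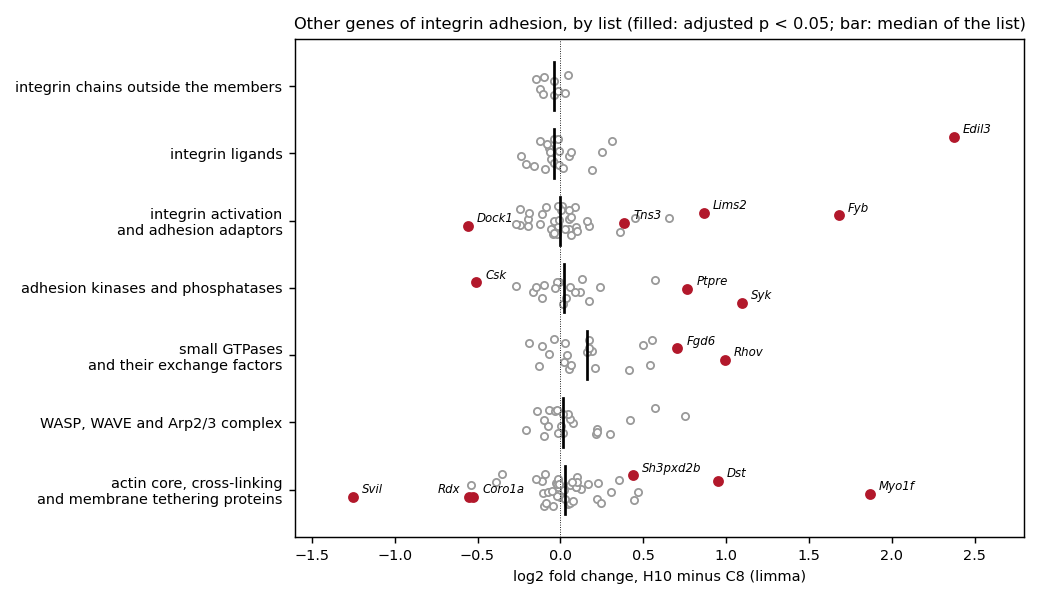
Log2 fold change of H10 against C8 cells (horizontal axis) for 178 genes of integrin adhesion outside the set, by list, with filled points where the adjusted p by limma was under 0.05 and a bar at each list's median. Edil3 (2.37), Myo1f (1.87) and Fyb (1.68) lie farthest right, and Svil (-1.25) farthest left. The list of further integrin chains (9 genes with Itgbl1) and that of WASP, WAVE and Arp2/3 (22 genes) hold no filled point.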

How the data were processed

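Expression of H10 and C8 cells was measured after 2 days with sRANKL (60 ng/mL), 3 arrays per line. The authors normalized the arrays with RMA and deposited log2 values. The software in the submitters' processing notes is Affymetrix Expression Console (version not given in the sources used here). Of 35545 features, 21781 had 1 gene symbol, 1621 several and 12143 none. Levels were not compared between genes, whose probes differ. Lines were compared with limma 3.58.1 (R 4.3.3; lmFit, eBayes, two-sided; 4 residual and 2.57 prior degrees of freedom), with Benjamini-Hochberg adjustment over all features and no filter. The number of arrays limits the precision. The fit was checked on simulated data. Background shares were taken over 19930 genes.

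The 40 genes, the 7 lists of other adhesion genes, the motifs and the stretch of chromosome 9 were chosen with earlier results of these data known. Of the 40, array values are given for genes past an adjusted or unadjusted p of 0.05 and for Itgav, Itgb3, Src and Ptk2b. From each list up to 3 genes per direction past the test, or the 2 with the smallest p, are named. RefSeq tables (GRCm38.p6) gave gene order and promoters; protein sequences were not used here. Figures were drawn with matplotlib 3.10.9.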

Additional observations from a re-analysis of the deposited data

How the results depend on the processing

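Of the 40 integrin and podosome genes, the 5 higher in H10 cells became 1 to 6 when 1 array was left out, 3 (Itgb7, Actn1 and Gsn) with each array centred on its median, and 5 to 7 with quantile normalization, the filter on dim features (17939 features and 30 of the 40 genes left), features of a gene averaged, a robust prior with an intensity trend, array quality weights or adjustment over 1 feature per gene. The 0 lower stayed 0 without each array in turn and became 1, Cbl, with the filter, the mean of features, the trend or the weights. Of the other adhesion genes, the 11 higher ones became 3 to 11 without 1 array, 18 with the filter, 21 with the mean of features and 17 with weights. The 5 lower ones became 0 to 3 without 1 array and 3 with median centring. Quantile normalization or the trend gave 6, and the filter, the mean of features, weights or adjustment over 1 feature per gene gave 7. Without the replicate 1 arrays of both lines, an alternative chosen after seeing the data, 7 were higher and 1 lower. Over all genes, the 369 higher and 208 lower became 152 to 346 and 40 to 126 without 1 array, 648 and 531 with the mean of features, 541 and 308 with weights, 516 and 423 with the filter, and 310 and 78 without the replicate 1 arrays of both lines. The cause was not tested. The median log2 fold change of the 40 genes was 0.04 to 0.09 in all 15 alternatives. The sign changed in some alternative for 13 of the 40, none of them past the threshold.

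With the replicate number as a block, 3 of the 40 were higher (Itgb7, Actn1 and Gsn, without Src, adjusted p = 0.103, and Vcl, 0.105) and 0 lower, 6 other adhesion genes were higher and 1 lower (Syk no longer passed, adjusted p = 0.0517), and over all genes 225 and 71. The labels do not say whether H10 and C8 arrays with the same number belong together. The deviations of arrays with the same number correlated at 0.17, -0.00 and -0.12. This cannot decide on a pairing, since the deviations of 3 arrays from their own mean are tied to each other. H10 replicate 1 correlated best with its own number (C8 replicate 1), and H10 replicates 2 and 3 with C8 replicates 3 (0.14) and 2 (0.23).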
